A study of Mus musculus with 6 samples.

Results

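The genes described here are 34 mouse genes of end joining, base excision, nucleotide excision and mismatch repair, taken by gene symbol, and all 34 were among the 14986 genes of the deposited table. By role, 8 act in end joining, 12 in base excision and single-strand break repair, 11 in nucleotide excision repair and 3 in mismatch repair. They were measured in long-term haematopoietic stem cells (LT-HSC), the self-renewing marrow cells from which blood is made, with 3 libraries from wild-type mice and 3 from mice labelled Zcchc8 KO. ZCCHC8 is a scaffold protein of the nuclear exosome targeting complex, which delivers short-lived nuclear RNA to the exosome for decay, and the title of the study links that complex to R loops and genome integrity. Each library came from 1500 cells sorted from lineage-depleted bone marrow. The labels used here do not give the strain, age and sex of the mice, the way the gene was knocked out, the sort markers or whether replicates came from separate animals. The p-values therefore reflect spread among these libraries, which may be technical. Values are FPKM, a fragment count scaled for gene length and library depth.

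The pathways mend different kinds of damage. In end joining, the Ku pair (XRCC5 and XRCC6) caps the ends of a broken double helix and recruits the kinase PRKDC, the nuclease Artemis (DCLRE1C) trims the ends, and LIG4 with XRCC4 and NHEJ1 seals them, while TRP53BP1 shields ends from resection. In base excision, glycosylases such as OGG1, UNG, MUTYH, NTHL1 and NEIL1 cut out damaged or mispaired bases, and APEX1 nicks the strand. POLB with XRCC1 and LIG3, or LIG1, then fills and closes the gap, with PARP1 as the sensor of nicks. Nucleotide excision removes bulky lesions found by XPC, by the DDB1 and DDB2 pair or by a stalled polymerase through ERCC6 and ERCC8. The helicases ERCC2 and ERCC3 open the helix, XPA checks the lesion, and the nucleases ERCC4 (with ERCC1) and ERCC5 cut on either side. Both nucleases have also been described as cutting R loops. MSH6 and MSH3 recognise mispaired bases and small loops after replication, and PMS2 nicks the strand to be replaced. Blood stem cells are mostly quiescent, a state in which broken ends are rejoined mainly by end joining.

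The promoters of 5 members are shown because the values below turn on these genes: both Ku genes, the break sensor gene Parp1 and the uracil glycosylase gene Ung, all at a higher mean in KO, and the adenine glycosylase gene Mutyh, at a lower mean. They are from RefSeq on GRCm38.p6, each holding the 250 bases before the start site on the plus strand, at chr1:72307171-72307420, chr15:82016119-82016368, chr1:180568641-180568890, chr5:114130185-114130434 and chr4:116807484-116807733 in that order. The Xrcc6 start lies inside the longer gene span given below from GENCODE. Capitals mark the GC box (GGGCGG), the CCAAT box (CCAAT) and 2 core motifs of E2F factors (TTCCCGC and TTGGCGC), each searched on both strands, and matches may overlap.
Xrcc5: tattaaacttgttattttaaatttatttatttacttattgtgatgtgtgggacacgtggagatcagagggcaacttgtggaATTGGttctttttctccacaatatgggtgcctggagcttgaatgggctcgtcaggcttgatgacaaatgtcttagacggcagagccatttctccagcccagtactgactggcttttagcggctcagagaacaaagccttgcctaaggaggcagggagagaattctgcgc
Xrcc6: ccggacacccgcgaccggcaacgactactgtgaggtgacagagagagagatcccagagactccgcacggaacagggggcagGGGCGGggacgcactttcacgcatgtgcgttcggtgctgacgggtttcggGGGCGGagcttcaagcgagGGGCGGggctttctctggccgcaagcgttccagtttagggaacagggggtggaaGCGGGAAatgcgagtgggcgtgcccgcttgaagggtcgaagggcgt
Parp1: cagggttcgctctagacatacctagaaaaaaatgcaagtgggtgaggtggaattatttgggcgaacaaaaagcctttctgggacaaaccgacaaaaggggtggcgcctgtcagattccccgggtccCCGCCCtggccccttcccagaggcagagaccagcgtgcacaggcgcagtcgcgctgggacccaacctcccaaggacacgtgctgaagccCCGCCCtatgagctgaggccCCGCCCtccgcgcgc
Ung: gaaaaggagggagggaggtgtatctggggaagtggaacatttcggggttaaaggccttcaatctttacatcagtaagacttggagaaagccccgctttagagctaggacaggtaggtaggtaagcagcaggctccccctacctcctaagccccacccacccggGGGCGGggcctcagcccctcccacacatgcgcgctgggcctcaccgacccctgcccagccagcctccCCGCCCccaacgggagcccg
Mutyh: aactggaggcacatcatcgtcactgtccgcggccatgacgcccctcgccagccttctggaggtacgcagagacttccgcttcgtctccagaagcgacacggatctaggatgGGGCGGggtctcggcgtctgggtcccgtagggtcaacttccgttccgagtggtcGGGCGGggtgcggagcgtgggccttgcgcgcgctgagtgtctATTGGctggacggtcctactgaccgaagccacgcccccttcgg
The Xrcc6 window held 3 GC boxes and 1 E2F core, Parp1 held 3 GC boxes, Ung 2, Mutyh 2 with 1 CCAAT box, and Xrcc5 1 CCAAT box and no GC box. The Xrcc5 window was also the poorest of the 5 in G and C, at 44.8% against 65.2% for Xrcc6, and the Ku partners thus had windows that differed in these letters. Among the 29 members with a RefSeq promoter, 19 (65.5%) held a GC box and 15 (51.7%) a CCAAT box. The shares were 59.6% and 37.8% among the promoters of 8535 tested genes. Among all 27025 promoters of the same length, taking 1 start per gene, they were 32.9% and 34.5%. These background shares used the first listed start of a gene, whereas members used the start nearest the GENCODE one, so the choice of start differed. TTCCCGC was in 3 members (10.3%), against 7.2% of tested and 3.8% of all promoters, and TTGGCGC also in 3, against 3.7% and 2.1%. No window was read for Prkdc, Polb, Xpc, Ercc3 and Ddb2.

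The libraries hold 18059321 to 25709664 reads behind the FPKM, as recovered from the steps of low values, and a member had from 0 to 5837 reads in a library. Of the 204 values of the members, 195 rest on at least 100 reads and 2 are at 0, both of Lig4. The targeted gene, Zcchc8 (GRCm38 chromosome 5, 123698294 to 123721100, minus strand), did not fall in libraries labelled KO, at 8.93, 5.24 and 5.16 FPKM in wild type against 10.4, 5.54 and 5.92 in KO (exact two-sided permutation p = 0.5, where 0.1 is the smallest that 3 libraries against 3 allow). One value per gene cannot show a deleted exon, and KO below means the libraries with that label. All 10 LT-HSC markers were present. None was called, 7 were lower by value in KO, 4 of them at an unadjusted p under 0.05 (limma), and the median log2 change was -0.35. Their sum was 242 to 292 FPKM in wild type and 230 to 266 in KO, and without Ly6a, the most abundant, 132 to 133 and 85.1 to 110.0. Over all tested genes 0.228% were called, at an adjusted p under 0.05, and 9.2% had an unadjusted p under 0.05 (limma). Among markers of other blood cells, several lists stood higher in KO. The summed erythroid markers were at 160 to 189 FPKM in wild type against 494 to 527 in KO, with 4 of 9 tested called higher. Granulocyte and eosinophil markers were at 2687 to 2893 and 3754 to 4201, with 5 of 11 called higher. Those called were Prg2, Prg3, Epx, Ear6 and S100a9, whereas 2 of the 11 were lower by value, Mpo (log2 change -0.43) and Elane (-0.04). S100a9 was the largest part of that sum, at 1412, 1321 and 1426 FPKM in wild type against 1887, 2021 and 2101 in KO. Monocyte, macrophage and dendritic markers stood at 129 to 155 FPKM in wild type and 248 to 294 in KO, with 2 of 6 called higher. Those called were the MHC class II genes H2-Aa and H2-Eb1, which with H2-Ab1 and Cd74 made up most of that sum. Ly6c2 and Irf8 were higher by value and not called (limma adjusted p = 0.34 and 0.718). T and NK markers stood at 191 to 233 and 310 to 324, with 0 of 4 called and 2 higher at an unadjusted p under 0.05 (limma). Nkg7 made up most of that sum, at 203, 228 and 174 FPKM in wild type against 308, 306 and 289 in KO. Of the 4 tested, 3 were higher by value and 1, Klrb1c, was lower. B cell markers summed to 809 to 926 FPKM against 84.3 to 118, a difference carried by Igkc, the 1 of 6 tested that was called, at 774, 746 and 866 FPKM against 0, 0 and 1.35, whereas 4 others were higher in KO at an unadjusted p under 0.05 (limma), and the list without Igkc summed to 60.6 to 70.1 and 84.3 to 116 FPKM. The table lacked some listed markers, and held 9 of 10 for B cells, 5 of 9 for T and NK cells and 6 of 9 for monocyte, macrophage and dendritic cells. Of these lists, Prg2, Prg3, Ear6 and Pax5 were below 0.5 FPKM in every wild-type library, and no listed marker in the table was at 0 in all 6. In bulk samples, fewer cells of a type and less RNA per cell cannot be told apart, and the part of these markers in the repair gene values was not tested.

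When the libraries labelled Zcchc8 KO were set against wild type, no repair gene of the 32 tested passed an adjusted p of 0.05. The members leaned both ways, 15 higher and 17 lower by value, where 50.2% of all tested genes were higher. The damage sensor gene Ddb2 differed most among those with an unadjusted p under 0.05, with a mean 2.65-fold higher in KO, and Mutyh, which removes adenine paired with oxidised guanine, had a KO mean at 0.379 of the wild-type one. Xrcc6, Parp1 and Ung were at 1.38, 1.48 and 1.41 times their wild-type means. The test was limma on log2(FPKM + 1) over the 11837 genes that averaged 1 FPKM or more, a scale that understates changes of low genes. Prkdc and Lig4 fell below that filter. By that test 0.228% of all tested genes passed the adjusted threshold. With limma-voom on recovered reads 0 members passed as well, and 5 had an unadjusted p under 0.05. In the main test an unadjusted p under 0.05 was reached by 5 members, or 15.6%, 4 higher and 1 lower, against 9.2% of all tested genes, 4.87% higher and 4.33% lower. KO and wild type were fully apart for 7 of the 32, or 21.9%, 5 with KO above and 2 with KO below, against 15.2% of all tested genes, 8.24% above and 6.99% below. Over so few genes these shares are a description and not a result about the members. The median log2 change of the 32 was -0.04, against 0.00 over all tested genes, and lay between -0.13 and 0.00 with 1 library left out.

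**Figure D1:**
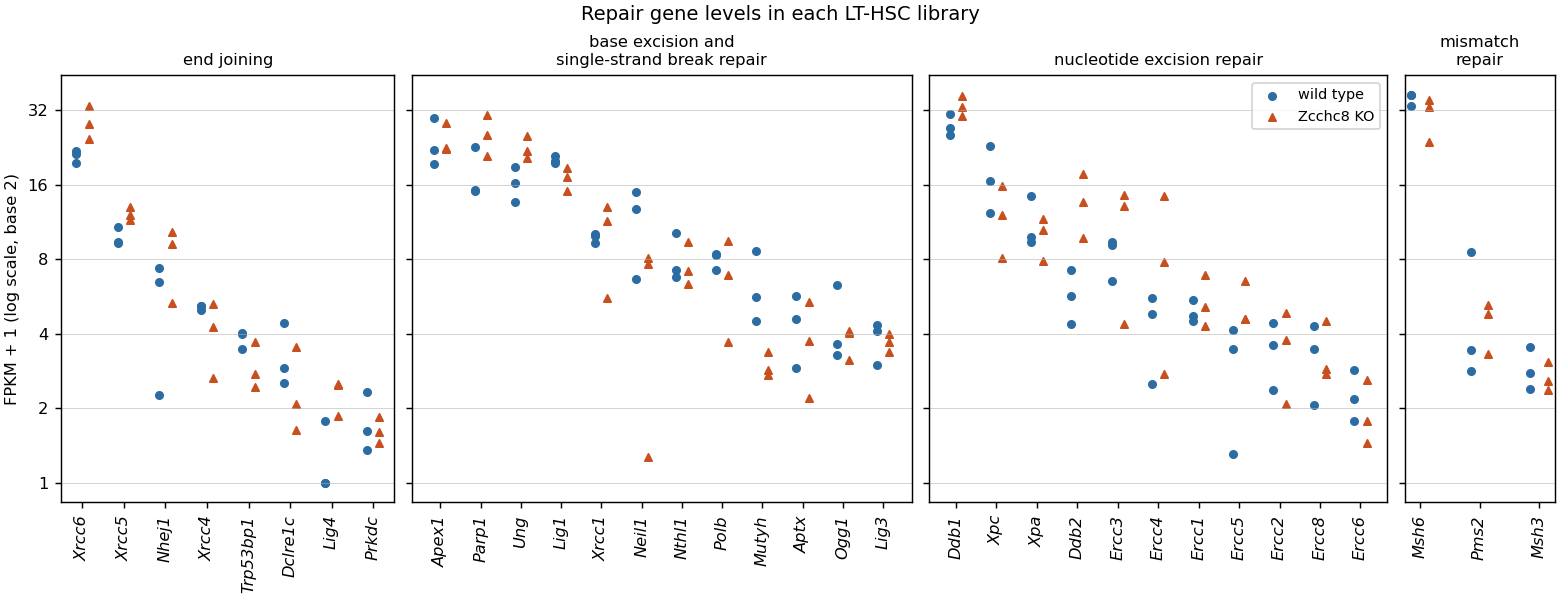
Level of each of the 34 repair genes in each library, as FPKM + 1 on a log scale of base 2, by pathway and ordered by mean level. Circles are the 3 wild-type libraries and triangles the 3 Zcchc8 KO libraries. Levels run from Msh6 and Ddb1, with means of 32.1 and 29.5 FPKM, down to Lig4 and Prkdc, and most genes have intermingled groups.

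Gene coordinates below are from GENCODE M21 on GRCm38. The end joining genes covered a wide range of levels, from Xrcc6 and Xrcc5 at the top to Prkdc at the bottom. Xrcc6, the smaller Ku subunit (chromosome 15, 81987835 to 82040085, plus strand), measured 18.5, 20.8 and 20.3 FPKM in wild type against 23.3, 32.02 and 27.02 in KO. Every KO library lay above every wild-type one, and the log2 change was 0.44 ± 0.18 (SE, limma, unadjusted p = 0.0401, adjusted p = 0.511). Xrcc5, the larger Ku subunit (chromosome 1, 72307421 to 72394952, plus strand), gave 8.25, 9.76 and 8.42 FPKM in wild type against 11.02, 10.5 and 11.96 in KO. Its groups were also apart, with a log2 change of 0.31 ± 0.22 (SE) and a limma adjusted p of 0.706. The partners thus differed in the same direction by 1.38-fold and 1.27-fold in mean FPKM, and neither passed. Their ratio, Xrcc6 over Xrcc5, was 2.26 ± 0.141 in wild type against 2.47 ± 0.498 in KO (SD, n = 3), with overlapping groups.

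Lig4, the ligase that works only in this pathway (chromosome 8, 9969049 to 9977686, minus strand), was at 0, 0 and 0.773 FPKM in wild type against 0.867, 1.49 and 1.51 in KO. Behind these values stood 0, 0 and 76 reads in wild type and 116, 147 and 164 in KO, so the gene was seen in every KO library and in 1 wild-type library. It was too low for the main test. With no filter on low values it had an unadjusted p of 0.0136 and an adjusted p of 0.416 (limma). Its partners Xrcc4 and Nhej1, the scaffold that aligns the ends with XRCC4, differed in direction by value. Nhej1 measured 6.39, 1.27 and 5.44 FPKM in wild type against 9.29, 8.21 and 4.34 in KO, a log2 change of 0.74 ± 0.48 (SE, limma adjusted p = 0.679) that went to 0.21 without wild-type library 2, the low one. Xrcc4 was at 4.10 ± 0.110 FPKM in wild type against 3.06 ± 1.31 in KO (SD, n = 3).

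The end joining genes Prkdc, Dclre1c and Trp53bp1 were low and had overlapping groups. Prkdc, the catalytic kinase subunit recruited by Ku, ranged from 0.357 to 1.32 FPKM in wild type against from 0.448 to 0.841 in KO. Dclre1c, the Artemis nuclease gene, stood at 2.29 ± 1.002 and 1.42 ± 1.003 FPKM (SD, n = 3), and Trp53bp1 at 2.83 ± 0.304 and 1.97 ± 0.664. Over the 6 tested genes of the role the median log2 change was -0.04, with 3 higher and 3 lower by value, with Xrcc4, Dclre1c and Trp53bp1 the lower ones, and leaving out a library gave 0.02 (wild type 1), 0.11 (KO 2) and 0.00 (KO 3).

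**Figure D2:**
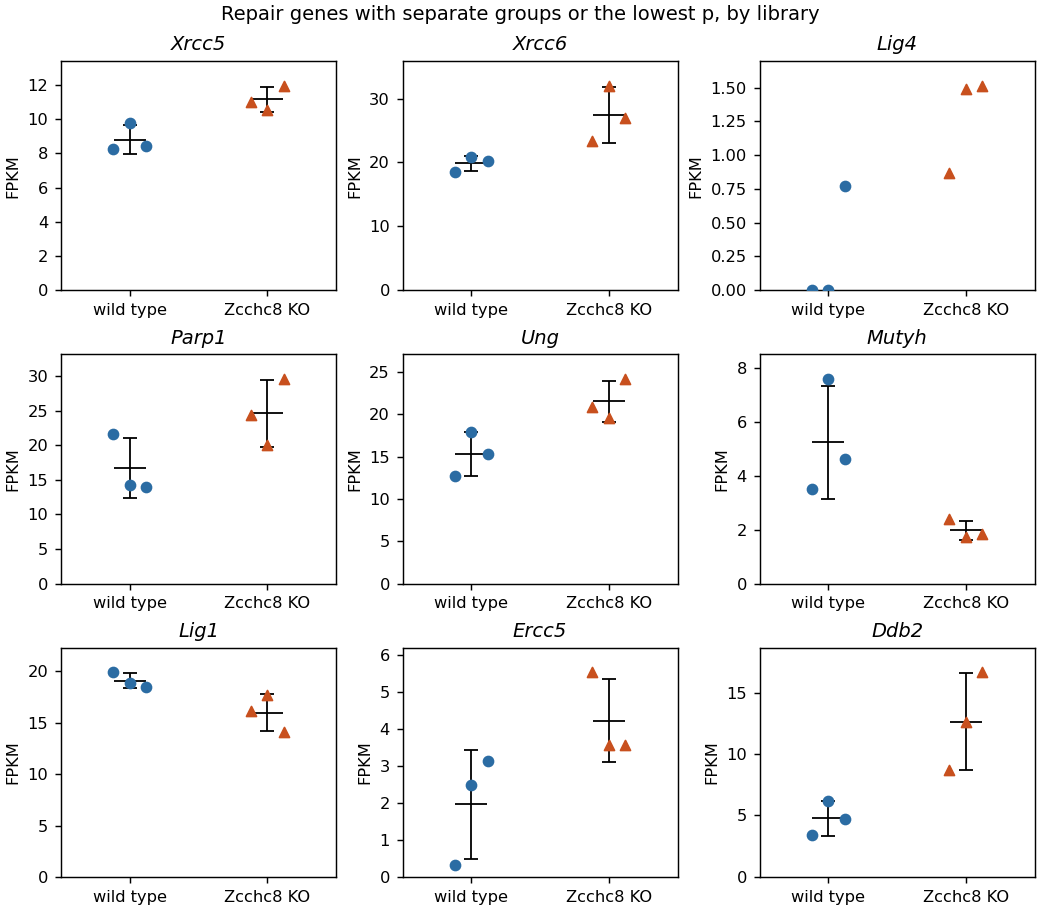
FPKM in each library, on linear axes from 0, of the 8 tested repair genes with an unadjusted p under 0.05 or groups that did not overlap, and of Lig4. Circles are wild type, triangles Zcchc8 KO, bars the mean and SD of 3 libraries (not drawn for Lig4, which is at 0 in 2 libraries). Mutyh and Lig1 are lower in all 3 KO libraries, Parp1 overlaps, and the other 6 are higher in all 3.

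Among base excision genes, the sensor and the uracil glycosylase stood higher in KO and the adenine glycosylase lower. Ung, which removes uracil from DNA (chromosome 5, 114130386 to 114139323, plus strand), measured 12.7, 17.9 and 15.3 FPKM in wild type against 20.9, 19.5 and 24.2 in KO. The groups were apart, with a log2 change of 0.48 ± 0.20 (SE, limma, unadjusted p = 0.0432, adjusted p = 0.521). Parp1, which marks strand breaks with poly(ADP-ribose) (chromosome 1, 180568924 to 180601254, plus strand), gave 21.7, 14.3 and 14.0 FPKM in wild type against 24.3, 19.9 and 29.6 in KO. Wild-type library 1 lay above the lowest KO library, so the groups overlapped, and the log2 change was 0.55 ± 0.24 (SE, limma, unadjusted p = 0.0459, adjusted p = 0.532).

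Mutyh (chromosome 4, 116807723 to 116819440, plus strand) had the lowest KO mean of the 5 glycosylase genes. It measured 3.52, 7.60 and 4.62 FPKM in wild type against 2.38, 1.72 and 1.86 in KO, with 166, 363 and 228 reads against 160, 85 and 101. Every KO library lay below every wild-type one, with a log2 change of -1.02 ± 0.34 (SE, limma, unadjusted p = 0.0153, adjusted p = 0.388). Without wild-type library 2, its highest, the log2 change was -0.76. The glycosylases for oxidised bases did not share this order of groups. Neil1 was at 14.0, 11.7 and 5.65 FPKM in wild type against 0.270, 6.65 and 7.06 in KO. KO library 1, with 13 reads, stood far below the other two, and the log2 change of -1.34 ± 0.68 (SE, limma adjusted p = 0.593) went to -0.46 without it. Ogg1, the glycosylase for 8-oxoguanine, gave 3.41 ± 1.66 and 2.76 ± 0.542 FPKM (SD, n = 3), and Nthl1, which acts on oxidised pyrimidines, 7.07 ± 1.86 and 6.65 ± 1.56.

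None of the enzymes that follow the glycosylases passed, and 0 of them had an unadjusted p under 0.05 (limma). Apex1, the endonuclease that nicks the strand at the empty site, was the highest of the role, at 20.9, 28.8 and 18.4 FPKM in wild type against 21.5, 21.3 and 27.3 in KO, with a 95% interval of its log2 difference from -0.43 to 0.54. Of its exon bases 61.7% are shared with Pip4p1 on the opposite strand, and strand use is not given, so its reads cannot be told from those of that gene, which had 6.52 ± 1.28 and 8.28 ± 3.44 FPKM (SD, n = 3). Lig1, the replicative ligase (chromosome 7, 13277283 to 13311433, plus strand), was at 19.9, 18.9 and 18.5 FPKM in wild type against 16.1, 17.7 and 14.1 in KO. Its groups were apart with KO below, a log2 change of -0.25 ± 0.18 (SE, limma adjusted p = 0.728). Polb, the gap-filling polymerase, stood at 6.97 ± 0.646 and 5.69 ± 2.87 FPKM (SD, n = 3), Xrcc1, the scaffold of nick repair, at 8.79 ± 0.423 and 8.99 ± 3.91, its ligase partner Lig3 at 2.81 ± 0.718 and 2.69 ± 0.303, and Aptx, which clears abortive ligation products, at 3.40 ± 1.40 and 2.77 ± 1.59. Over the 12 genes of the role the median log2 change was -0.13, with 3 higher and 9 lower by value. Without KO library 1 it was -0.01, with 6 higher and 6 lower, and leaving out KO library 2 or wild-type library 3 gave -0.22 and -0.19.

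In nucleotide excision repair the lesion-binding pair had unequal differences, large for Ddb2 and small for Ddb1. Ddb2 (chromosome 2, 91211572 to 91236982, minus strand), the subunit that contacts ultraviolet lesions and is known as a p53 target in human cells, measured 3.40, 6.21 and 4.68 FPKM in wild type against 8.70, 12.6 and 16.6 in KO, from 168, 311 and 242 reads against 612, 652 and 948. Every KO library lay above every wild-type one. The log2 change was 1.23 ± 0.31 (SE), with a 95% interval from 0.52 to 1.94 and a limma adjusted p of 0.228 (unadjusted p = 0.00354), the smallest adjusted p among the members. It was 1.02 to 1.45 over the 14 other settings tried, which reuse the same libraries. The unadjusted p was under 0.05 in 14 of 14 and the adjusted p from 0.192 to 0.437 (limma). Of its exon bases 23.8% are shared with Acp2 on the opposite strand. Acp2 stood at 2.55 ± 2.78 FPKM in wild type against 2.57 ± 1.94 in KO (SD, n = 3), a ratio of means of 1.01. Opposite-strand genes also share exon bases with Lig3 (25.1%), Ercc2 (24.6% with Gm26852 and 17.8% with Klc3), Trp53bp1 (2130 bases, with Tubgcp4) and Ogg1 (10.6%).

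Ddb1, the adaptor of the ubiquitin ligase that holds DDB2, was higher in level and close between groups, at 24.4, 26.05 and 29.8 FPKM in wild type against 35.4, 29.1 and 31.9 in KO (log2 change 0.26 ± 0.17, SE, limma adjusted p = 0.679). The ratio of Ddb2 to Ddb1 was 0.139, 0.239 and 0.157 in wild type and 0.246, 0.432 and 0.521 in KO. All 3 KO ratios lay above the wild-type ones, the lowest only just. The ratio rests on the same Ddb2 values, whose groups were already apart, and is not a separate result. For the other p53 targets listed, none of 9 tested passed and 1 had an unadjusted p under 0.05, lower (limma), with 5 higher and 4 lower by value, and their summed level was 126 to 147 FPKM in wild type against 124 to 136 in KO.

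**Figure D3:**
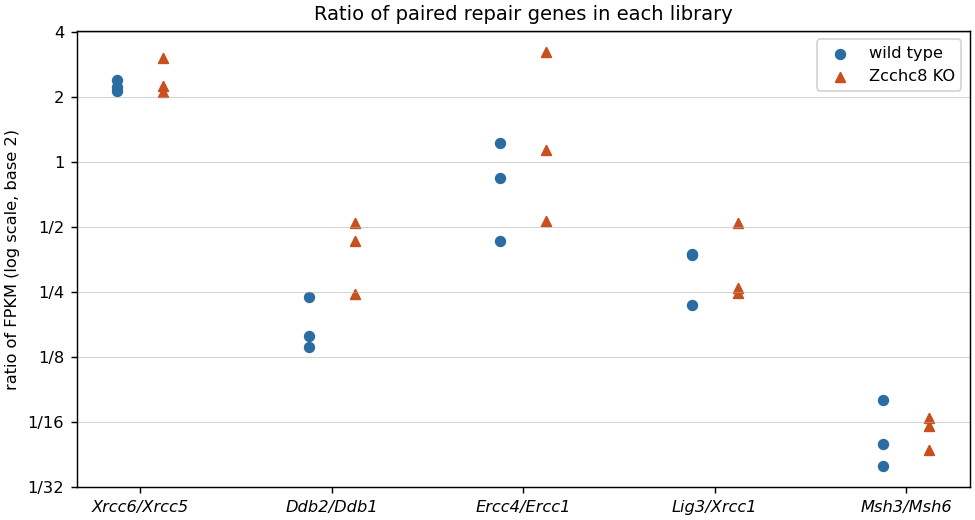
Ratio of FPKM of paired repair genes in each library, on a log scale of base 2, with circles for wild type and triangles for Zcchc8 KO. Ddb2 over Ddb1 is the pair whose 3 KO ratios all lie above the wild-type ones, as do the values of Ddb2 alone, and the groups of the other 4 pairs overlap.

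Xpc, the lesion finder of the whole genome, was lower in KO by value, at 21.98, 11.3 and 15.5 FPKM in wild type against 11.02, 7.11 and 14.8 in KO. The groups overlapped, with a log2 change of -0.53 ± 0.32 (SE, limma adjusted p = 0.654). Xpa, the lesion verifier, gave 8.83, 13.4 and 8.35 FPKM in wild type against 9.51, 10.6 and 6.90 in KO, with an interval of its log2 difference from -0.77 to 0.47. The helicase genes of TFIIH, Ercc3 and Ercc2, were at 7.36 ± 1.59 and 9.67 ± 5.51 FPKM and at 2.47 ± 1.04 and 2.56 ± 1.39 (SD, n = 3). Ercc6 and Ercc8, which couple repair to transcription, were among the lowest, at 1.28 ± 0.546 and 0.943 ± 0.586 FPKM and at 2.27 ± 1.13 and 2.38 ± 0.984.

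The incision nucleases varied widely between libraries of a group. Ercc5, the 3′ nuclease (chromosome 1, 44147744 to 44181260, plus strand), measured 0.312, 2.48 and 3.13 FPKM in wild type against 5.54, 3.58 and 3.58 in KO, with 33, 266 and 347 reads against 835, 398 and 437. The groups did not overlap, and the log2 change was 0.95 ± 0.46 (SE, limma adjusted p = 0.586). It rested in large part on wild-type library 1, without which it was 0.44. Ercc4, the 5′ nuclease subunit, gave 1.51, 3.80 and 4.57 FPKM in wild type against 1.76, 6.75 and 13.4 in KO. KO library 3 stood far above the rest and KO library 1 among the wild-type values, and the log2 change of 0.73 ± 0.59 (SE, limma adjusted p = 0.745) was 0.19 without KO library 3 and 1.38 without KO library 1. Its partner Ercc1 was at 3.90 ± 0.531 and 4.44 ± 1.33 FPKM (SD, n = 3). Over the 11 genes of the role the median log2 change was 0.13, with 8 higher and 3 lower by value. Without KO library 2 the median was -0.05, with 5 higher and 6 lower, and leaving out wild-type library 1, 2 or 3 or KO library 1 gave 0.05, 0.24, 0.20 and 0.29.

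None of the 3 mismatch repair genes passed, and 0 had an unadjusted p under 0.05 (limma). Msh6 had the highest mean of all 34 members, at 35.8, 32.3 and 35.8 FPKM in wild type against 22.7, 31.7 and 34.2 in KO, with a log2 change of -0.24 ± 0.19 (SE, limma adjusted p = 0.741). The groups overlapped, KO library 1 being the low one, and without it the log2 change was -0.07. Msh3, which takes the place of MSH6 for longer loops, was at 1.78, 2.55 and 1.40 FPKM in wild type against 1.37, 2.08 and 1.59 in KO. Its ratio to Msh6 was 0.0559 ± 0.0207 in wild type against 0.0574 ± 0.00970 in KO (SD, n = 3), a difference smaller than the spread between libraries. Pms2, the nicking subunit, gave 7.58, 2.44 and 1.82 FPKM in wild type against 3.79, 4.24 and 2.32 in KO, and wild-type library 1 lay far above the other two.

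**Figure D4:**
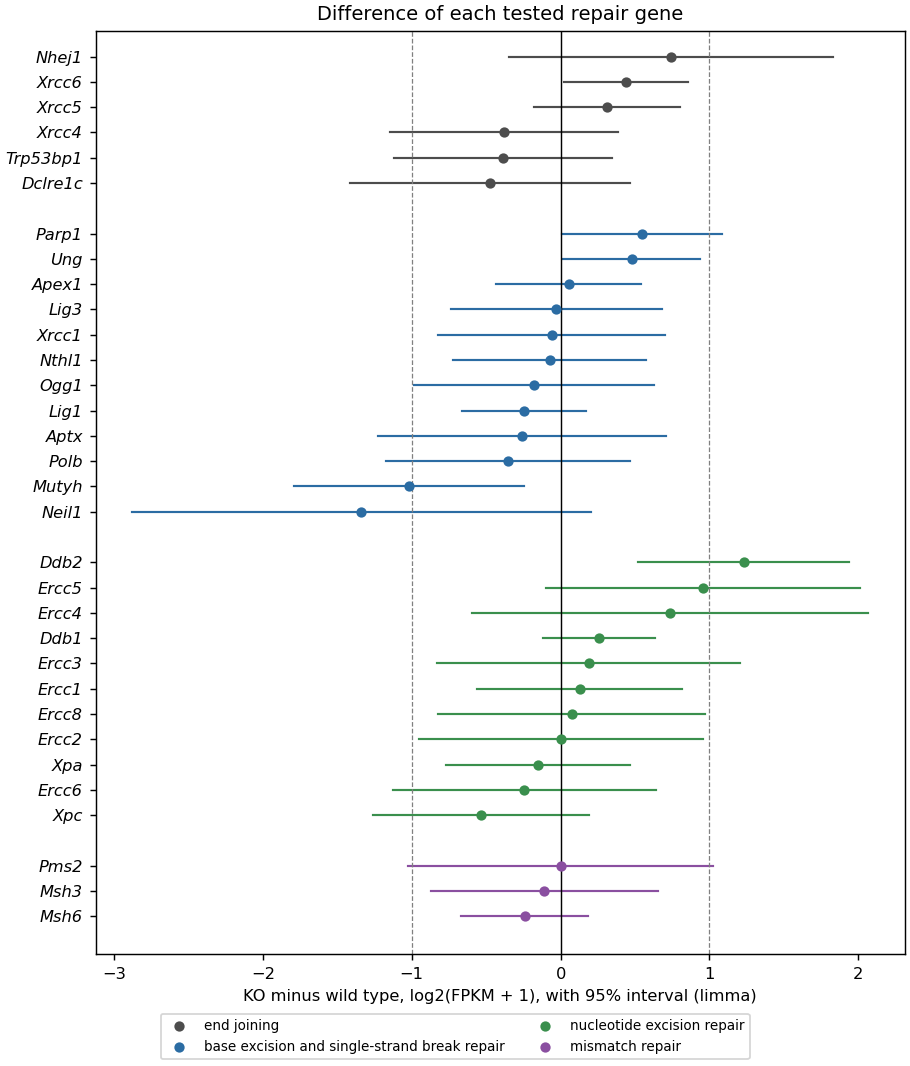
Difference between KO and wild type of each of the 32 tested repair genes on the log2(FPKM + 1) scale, as points with 95% intervals from limma, by pathway. Dashed lines mark 1 log2 unit either way. The intervals of 16 genes stay inside them, and those of Ddb2, Mutyh, Xrcc6, Ung and Parp1 do not hold 0 before adjustment.

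The intervals say which differences the data leave possible. For 16 of the 32 members the 95% interval lay within 1 log2 unit of 0 on both sides, against 53.7% of all tested genes. Among these were Xrcc5, Xrcc6, Lig1, Ung, Apex1, Ddb1 and Msh6. For the other 16, among them Ercc4, Ercc5, Neil1 and Nhej1, a change of that size in at least 1 direction lay within the interval.

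By level, the median within-group SD of log2(FPKM + 1) was 0.20 for the 7 members between 15 and 40 FPKM, 0.47 for the 11 between 5 and 15, and 0.39 for the 14 between 1 and 5. Over all tested genes in these ranges it was 0.27, 0.36 and 0.47. The largest was that of Neil1 at 1.16 and the smallest that of Xrcc5 at 0.10. Wild-type library 1 was the lowest of its group for 17 of the 34 members and KO library 1 for 14, against 35.2% and 35.0% of all tested genes, with the tie of Lig4 at 0 counted to wild-type library 1. Longer members tended to be lower, with a Spearman rho between exon length and mean FPKM of -0.46 across the 34 genes and -0.40 across 11599 tested genes with a length, which are not independent and share the scaling by length.

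**Figure D5:**
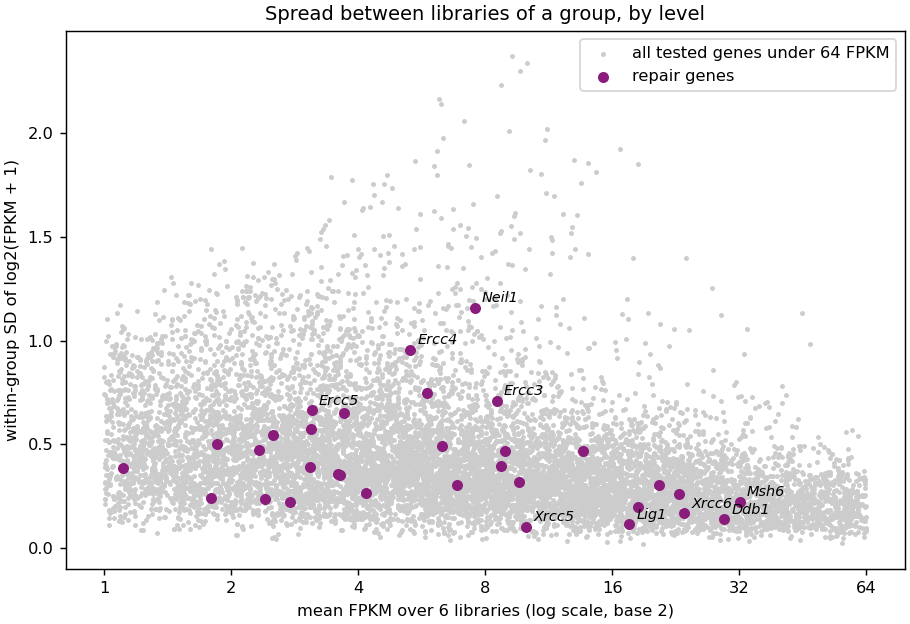
Within-group SD of log2(FPKM + 1) against the mean FPKM over 6 libraries (log scale, base 2) for the 32 tested repair genes, in colour, and all tested genes under 64 FPKM, in grey. Xrcc5 and Lig1 lie low and Neil1 and Ercc4 high, and the repair genes lie within the grey cloud.

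Of 60 other genes of these pathways, 59 were in the table and 58 tested, and 1 passed, higher in KO, where 0.228% of all tested genes passed. That gene was Dntt, the template-free polymerase that adds bases at broken ends in lymphoid progenitors, at 1.91, 0.596 and 1.59 FPKM in wild type against 18.8, 16.5 and 11.6 in KO (limma adjusted p = 0.0125). It no longer passed once wild-type library 3, KO library 1 or KO library 2 was left out, where the log2 change of 2.84 was 2.93, 2.70 and 2.79. At an unadjusted p under 0.05 there were 2 higher, Dntt and Rpa2, and 1 lower, Uvssa, or 5.2% against 9.2% of all tested genes. Uvssa, which steadies the stalled polymerase complex in transcription-coupled repair, measured 11.5, 13.6 and 13.7 FPKM in wild type against 6.70, 7.23 and 8.31 in KO. Its groups were well apart, with a log2 change of -0.73 ± 0.22 (SE, limma, unadjusted p = 0.00982, adjusted p = 0.34). Rpa2, a subunit of the single-strand binding protein, was at 51.7, 52.6 and 39.9 FPKM in wild type against 53.1, 71.4 and 64.2 in KO, a log2 change of 0.38 ± 0.17 (SE, limma adjusted p = 0.542). The groups did not overlap for 11 of the 58, or 19.0%, against 15.2% of all tested genes. Their median log2 change was 0.02, with 31 higher and 27 lower by value.

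Since Ung, Lig1, Msh6 and Rpa2 also serve replicating DNA, the cell cycle lists are given beside them. Of 16 replication genes none passed, 2 were higher and 1 lower at an unadjusted p under 0.05 (limma), 9 were higher and 7 lower by value, and their summed level was 498 to 514 FPKM in wild type against 511 to 594 in KO. Of 14 genes of G2 and mitosis none passed, 0 had an unadjusted p under 0.05 (limma) and 9 were higher by value, with sums of 356 to 372 and 384 to 395 FPKM. The part of these lists in the repair gene values was not tested.

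The count of 5 members at an unadjusted p under 0.05 moved with the libraries used. Without wild-type library 1, 2 or 3 it was 3, 2 and 3, and without KO library 1, 2 or 3 it was 5, 4 and 3. It was 2 without the variance trend of limma and 3 with the replicate number as a block. By gene, Xrcc6 had an unadjusted p under 0.05 (limma) in 8 of 14 alternatives. The same held in 7 of 14 for Parp1, 7 of 14 for Ung and 12 of 13 for Mutyh.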

How the data were processed

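Polyadenylated RNA of 6 LT-HSC libraries was amplified as cDNA and made into transposase libraries, per the labels' protocols. Groups, replicate numbers and columns were matched through the sample titles. The authors deposited FPKM values by gene symbol, made with fastp, Bowtie2 and featureCounts on mm10, per the submitters' processing notes, with no versions. No label states strand use or the treatment of multi-mapping reads, which leaves overlapping genes uncertain, and Bowtie2 does not split reads over introns. Identifiers, coordinates and exon lengths came from GENCODE M21 (GRCm38, the assembly of mm10), with 14671 symbols matched (97.9%). FPKM times exon length came out as whole reads within 0.05 for 98.0% of values below 100 reads. Amplified cDNA repeats molecules, so reads overstate independent molecules, and no molecular identifiers are in the file.

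Genes averaging 1 FPKM or more were tested on log2(FPKM + 1) in limma 3.58.1 (R 4.3.3) with a variance trend, two-sided, adjusted by Benjamini-Hochberg over 11837 genes, threshold 0.05. Folds are ratios of mean FPKM. The procedure was tested on simulated data. Alternatives changed the pseudocount (0.1), the filter, the trend, the scaling, the block, the libraries and the unit (voom on recovered reads). The members and lists were chosen with earlier results of these data known. Named in full were members with an unadjusted p under 0.05 or groups apart and the 3 highest of each role. Other pathway genes were named if the adjusted or, for up to 8, the unadjusted p was under 0.05. Figures used matplotlib 3.10.9 in Python 3.11.15.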

Additional observations from a re-analysis of the deposited data

How the results depend on the processing

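No member passed an adjusted p of 0.05 under any of the 14 alternatives run (limma), with 0.192 the smallest adjusted p of a member, that of Ddb2. Of the 32 tested members 18 kept 1 sign under every alternative that could test them and 14 changed sign under at least 1. Calls over all genes went from 27 to 8 without the variance trend, to 11 with the replicate block and to 8 with voom on recovered reads, and to between 11 and 19 with a library left out. Calls among the other pathway genes went from 1 to 0 without the trend, with the replicate block and with voom, and to 0 or 1 with a library left out. That call was of Dntt. The median log2 change of end joining went from -0.04 to 0.44 with a mean FPKM of at least 5, which left fewer genes. Zcchc8 changed sign to -0.11 without KO library 1 and reached 0.37 without wild-type library 1. Deviations of same-numbered libraries correlated at 0.02, 0.01 and 0.00 over 11837 genes. So few libraries cannot show whether those with the same number were paired, and the labels do not say. The block changed no member's call. Lig4 had 0 reads in 2 wild-type libraries of 18059321 and 18294785 reads and 76 in the third, of 18909211 reads, and the cause was not tested.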
